A study of Mus musculus with 8 samples.

Results

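Prostaglandin genes were followed across 8 Affymetrix arrays of mouse embryonic fibroblasts (C57BL/6). The list names 10 genes: the cyclooxygenases Ptgs1 and Ptgs2, the terminal synthases Ptges, Ptgds and Ptgis, the receptors Ptger2, Ptger4, Ptgfr and Ptgir, and the degrading enzyme Hpgd. A probe set, a group of short probes read as 1 value, was taken where the platform annotation gave it exactly 1 symbol and that symbol was on the list. This found 19 probe sets of 9 genes, among 45037 probe sets and 18193 named genes, and Ptgs1 is not analysed here.

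All cells were Stat5-null and carried a STAT5 mutant brought in by retrovirus. The mutant was EA, in which an EE pair of the binding domain was changed to AA, or YF, which carries Y694F at the phosphorylation site. The cells were left without hormone or given growth hormone for 120 minutes. Each of the 4 groups has 2 arrays, which the series text calls biological duplicates. No cells with wild-type STAT5 or an empty vector are analysed here, and the labels do not say how many infections gave rise to each mutant line. A difference between EA and YF cells therefore cannot be told apart from one between the cultures that carry them. In such bulk RNA, fewer cells of a type and less RNA per cell also cannot be told apart.

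Prostaglandins are lipid signals made from arachidonic acid. Cyclooxygenases turn the released acid into the intermediate PGH2, and terminal synthases convert it to PGE2 (Ptges), PGD2 (Ptgds) or prostacyclin (Ptgis), which act on G protein-coupled receptors of nearby cells. Importers such as Slco2a1 carry prostaglandins back into cells, where Hpgd, a 15-hydroxy dehydrogenase, inactivates them. Fibroblasts are a known source of PGE2, and Ptgs2 is the cyclooxygenase that cytokines and growth factors induce.

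Levels are given as log2 expression values, on which a difference of 1 is a doubling. They formed a dense low group, since 55.0% of all probe sets averaged below 4 across the arrays. Of the 19 prostaglandin probe sets, 7 lay below this bound and 12 above it, the latter covering 7 genes. How log2 values scale with RNA in the low group is unknown, and the size of any fold that reaches into it is uncertain. Among the YF arrays, replicate 1 with hormone was the odd one, with a score of -55.8 on the second principal component against -3.28, 25.8 and 32.6.

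**Figure D1:**
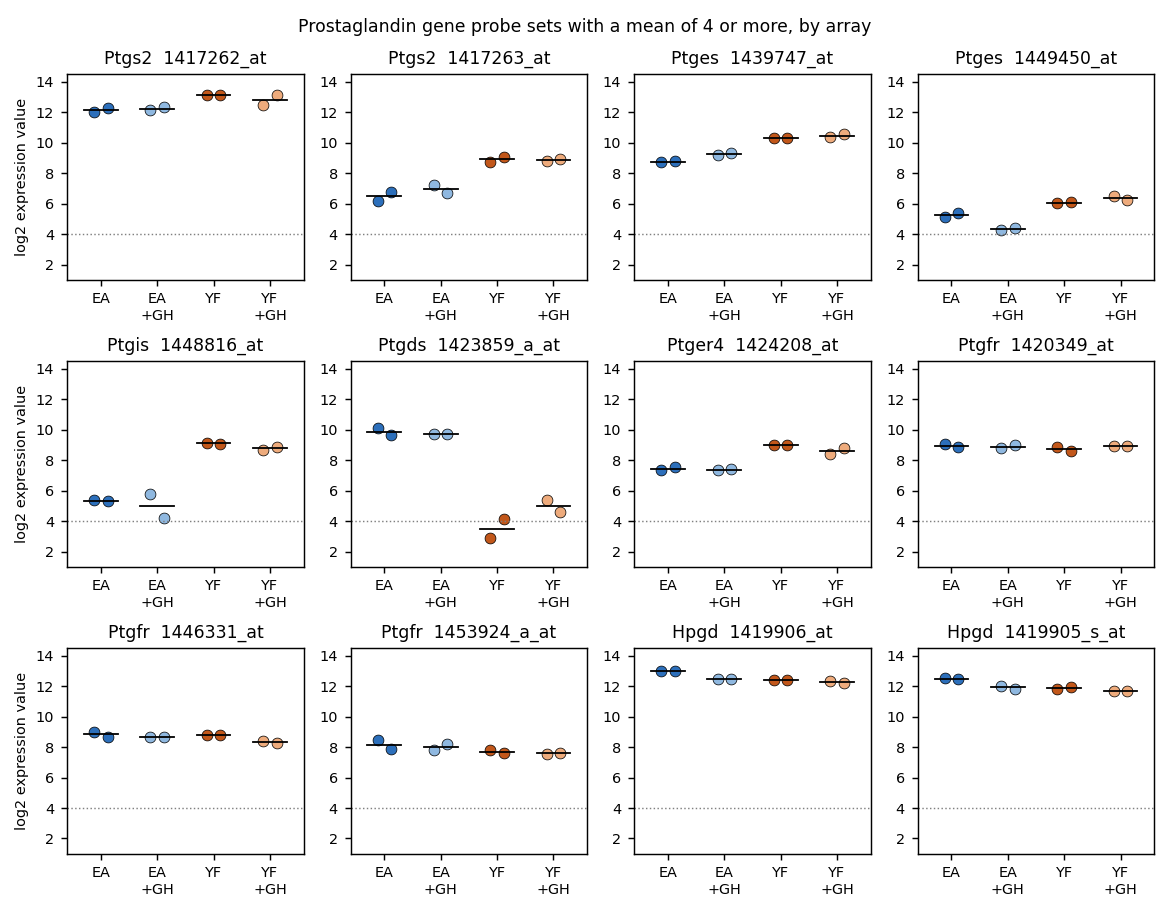
Log2 expression value of each array (points) and group mean (line) for the 12 prostaglandin probe sets with a mean of 4 or more, in EA and YF cells without and with growth hormone (GH), 2 arrays a group; the dotted line marks 4. Ptgs2, Ptges, Ptgis and Ptger4 lie lower and Ptgds higher in every EA array than in any YF array.

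The first comparison asks how the cells with the 2 mutants differ. EA cells had less RNA of Ptgs2, of the PGE2 synthase Ptges, of the prostacyclin synthase Ptgis and of the PGE2 receptor Ptger4 than YF cells. They had far more of the PGD2 synthase Ptgds and slightly more of the degrading enzyme Hpgd. Averaged over treatments (4 arrays a side), 11 of the 19 probe sets passed at an adjusted p under 0.05, 4 higher and 7 lower in EA, and they covered 6 of the 9 genes. The background was high, since 16.5% of all probe sets passed in this comparison and 33.8% of those at or above the bound of 4. Of the 12 prostaglandin probe sets at or above the bound, 9 passed. The median difference was 0.01 over the 19 probe sets and 0.02 over all. The former was the value of the Ptger2 probe set, which lay in the low group. It therefore says little about the 12 at or above the bound.

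**Figure D2:**
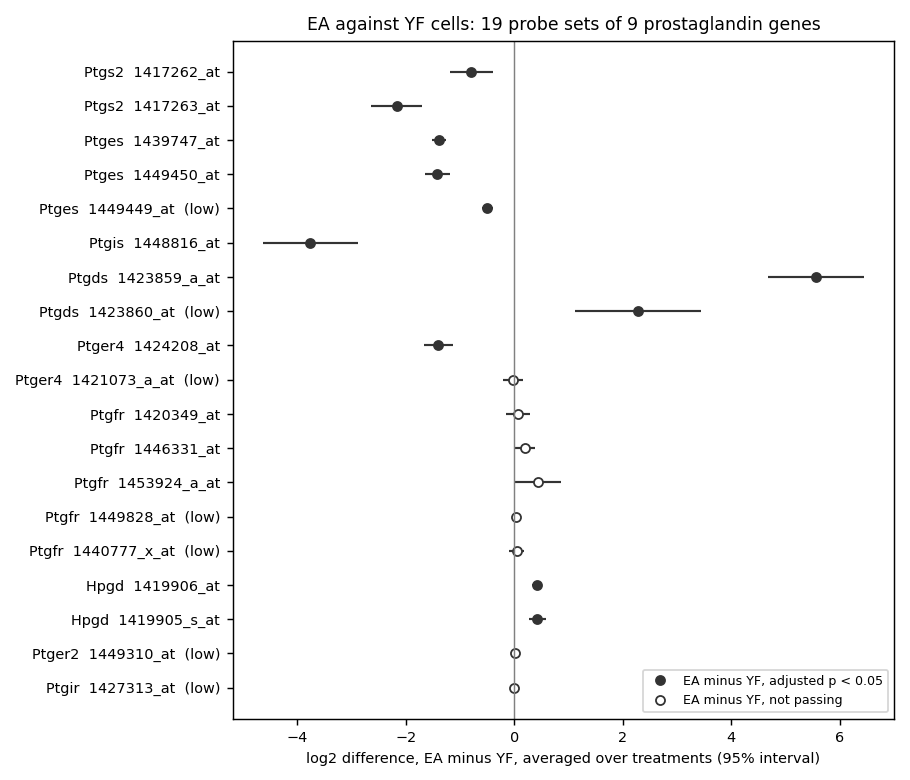
Log2 difference between EA and YF cells, averaged over treatments, with its 95% interval from limma for the 19 probe sets of 9 prostaglandin genes; filled points pass at an adjusted p under 0.05, and "low" marks a mean below 4. Ptgds lies farthest to the right (5.56) and Ptgis farthest to the left (-3.76).

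Markers of cell types also differed between the mutants. Of 12 fibroblast markers 11 had a mean of 4 or more, and 6 were lower in EA cells. Thy1 (-4.96), Dcn (-4.45) and Lum (-0.92, in the low group) differed most, while Col1a1, S100a4 and Fn1 differed by -0.24 to -0.15. The other 6, Col1a2, Col3a1, Col5a1, Vim, Pdgfra and Pdgfrb, did not pass (-0.02 to 0.28). The mean level of the list, 11.5 to 11.7 on the EA arrays and 12.4 to 12.6 on the YF arrays, thus differed mainly through Thy1 and Dcn. Of 6 smooth muscle markers 3 were lower in EA (mean of the list 7.67 to 7.92 against 9.35 to 9.66), Cnn1 by -4.82, Myh11 by -4.47 with its EA side in the low group, and Acta2 by -0.36. Of 8 mesothelial and epithelial markers 3 were higher in EA (4.05 to 4.14 against 2.54 to 2.72). Only 2 of the 8 had a mean of 4 or more, and both were among the 3. Msln had a mean of 8.01 in unstimulated EA and 2.26 in YF, and Krt19 10.12 and 4.19. The third, Krt18 (0.39), lay inside the low group, as did Krt8, Epcam, Cdh1, Upk3b and Lrrn4, which did not pass. Of 9 macrophage markers Cd68 alone passed (3.15 higher in EA). Csf1r had group means of 8.12 to 8.97 and Cd14 of 4.12 to 5.19, and neither passed (-0.38 and 0.79). The other 6 were in the low group, with Ptprc, Adgre1 and Itgam at 2.32 to 2.54 in all groups. All 6 mast cell markers lay in the low group, as did 5 of 6 endothelial markers, the other being Tek (-1.58). None of 3 adipocyte markers differed by the test, with Fabp4 at group means of 12.14 to 12.32 and Adipoq and Lep in the low group. The part of these marker differences in the prostaglandin differences was not tested.

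Promoter sequence is shown for 4 of the genes that differed between the mutants, since they did not move as 1 block: Ptgs2, Ptges and Ptger4 were lower in EA cells and Ptgds was higher. The stretches end at the base before the annotated start and come from the RefSeq promoter table of GRCm38.p6, 5′ to 3′ on the strand of the gene, where 9 of the 10 genes have a window of 250 bases before and 50 after the start (none for Ptgis). Capitals mark a match to any of 5 motifs searched by exact letters on both strands: the NF-kB core GGNNTTNCC, the STAT site TTCNNNGAA, the CRE core TGACG, the E-box CACGTG and the TATA box TATAAA.
Ptgs2, chr1:150099781-150100030, plus strand: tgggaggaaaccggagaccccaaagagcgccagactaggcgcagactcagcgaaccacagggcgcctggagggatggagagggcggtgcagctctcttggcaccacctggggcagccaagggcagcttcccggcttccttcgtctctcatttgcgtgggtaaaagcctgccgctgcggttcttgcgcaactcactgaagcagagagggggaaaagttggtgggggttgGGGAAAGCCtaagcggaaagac
Ptges, chr2:30903298-30903417, minus strand: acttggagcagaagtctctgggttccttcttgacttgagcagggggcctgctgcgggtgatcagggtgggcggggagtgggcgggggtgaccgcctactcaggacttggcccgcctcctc
Ptger4, chr15:5244188-5244307, minus strand: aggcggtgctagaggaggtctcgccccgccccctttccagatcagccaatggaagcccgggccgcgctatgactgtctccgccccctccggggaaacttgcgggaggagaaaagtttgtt
Ptgds, chr2:25469750-25469869, minus strand: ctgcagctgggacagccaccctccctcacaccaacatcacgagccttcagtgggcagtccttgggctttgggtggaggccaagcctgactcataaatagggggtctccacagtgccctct

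Among the 9 windows, Ptgs2 alone held the NF-kB core, the CRE core and the E-box. Positions are counted from the annotated start, and where transcription begins in these cells was not measured. Its NF-kB match began 22 bases before the annotated start, on the minus strand. Its CRE and E-box matches overlapped just after the annotated start, in this short stretch.
Ptgs2, chr1:150100040-150100059, plus strand: actaCGTCACGTGgagtccg
No window of the 9 held the STAT site. Hpgd alone held the letters TATAAA, beginning at base 5 counted from its annotated start, which describes letters and not a working TATA box. Of all 32851 windows of this length in the table, 16.0% held the NF-kB core, 8.30% the STAT site, 20.8% the CRE core, 7.15% the E-box and 13.6% the TATA box. Such matches describe letters in the window and no binding was measured.

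Ptgs2, the inducible cyclooxygenase, was measured by 2 probe sets. On the brighter one (1417262_at) the values were 12.03 and 12.29 in EA, 12.16 and 12.35 in EA with hormone, 13.15 and 13.16 in YF, and 12.51 and 13.15 in YF with hormone. Every EA array lay below every YF array, with replicate 1 of YF with hormone the lowest of the YF arrays. The average difference was -0.79 (SE 0.16, adjusted p = 0.027), or 1.73-fold lower in EA cells. This call was lost when any of the 4 EA or EA with hormone arrays or either unstimulated YF array was left out, with differences of -0.85 to -0.72 and adjusted p of 0.056 to 0.096.

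The second Ptgs2 probe set (1417263_at) gave a wider gap. Its values were 6.20 and 6.79 in EA, 7.21 and 6.72 in EA with hormone, 8.73 and 9.09 in YF, and 8.84 and 8.94 in YF with hormone. The average difference was -2.17 (SE 0.19, adjusted p = 0.0017), 4.50-fold lower in EA, and it passed in all 14 alternative fits. The 2 probe sets thus gave the same direction but different sizes of change, and which part of the transcript each covers was not analysed here.

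Ptges, the microsomal PGE2 synthase that is often induced together with Ptgs2, was lower in EA cells on all 3 of its probe sets. The brightest (1439747_at) had values of 8.73 and 8.80 in EA, 9.19 and 9.35 in EA with hormone, 10.33 and 10.33 in YF, and 10.40 and 10.55 in YF with hormone. Averaged over treatments, EA minus YF was -1.39 (SE 0.05, adjusted p = 0.00015), 2.62-fold lower in EA. On 1449450_at the values were 5.12 and 5.39 in EA, 4.31 and 4.39 in EA with hormone, 6.04 and 6.09 in YF, and 6.52 and 6.23 in YF with hormone. That gave -1.42 (SE 0.09, adjusted p = 0.00071), 2.68-fold lower. The third probe set, 1449449_at, had all 4 group means inside the low group, and its difference of -0.49 (SE 0.04, adjusted p = 0.0015) came from the YF arrays with hormone. All 3 calls held in every alternative fit that could give them.

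Ptgis makes prostacyclin, an agent that relaxes vessels and inhibits platelets. Its single probe set read 5.39 and 5.31 in EA, 5.79 and 4.23 in EA with hormone, 9.16 and 9.04 in YF, and 8.67 and 8.90 in YF with hormone. The 2 EA arrays with hormone were the least alike, and the nearest EA and YF arrays were still well apart. The average difference was -3.76 (SE 0.35, adjusted p = 0.0021), which is 13.6-fold lower in EA cells and passed in all 14 alternative fits, with values of -4.15 to -3.37. Without hormone alone it was -3.75 (SE 0.49, adjusted p = 0.011), and this narrower call was lost without any of the 4 unstimulated arrays (adjusted p of 0.056 to 0.060).

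Ptgds, which makes PGD2 and is also a lipid carrier, went the other way and had the widest gap of the list. On 1423859_a_at the EA arrays read 10.11 and 9.65 without and 9.75 and 9.71 with hormone. The YF arrays read 2.86 and 4.17 without and 5.38 and 4.57 with hormone, so that the EA arrays were alike while the YF arrays spread around the low bound. EA minus YF averaged 5.56 (SE 0.35, adjusted p = 0.00069), nominally 47.3-fold higher in EA, and it passed in all 14 alternative fits. Because the unstimulated YF mean of 3.51 lay in the low group, the size of the fold is uncertain. The second probe set (1423860_at) read 5.54 and 4.92 in EA, 4.13 and 2.13 in EA with hormone, and 1.86 to 1.93 in the 4 YF arrays. Its difference was 2.28 (SE 0.46, adjusted p = 0.027), and that call was lost without any 1 of the unstimulated EA, unstimulated YF or YF with hormone arrays (adjusted p of 0.061 to 0.090).

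Of the receptors, Ptger4, the EP4 receptor that raises cyclic AMP in response to PGE2, was lower in EA cells. The probe set 1424208_at read 7.33 and 7.56 in EA, 7.34 and 7.41 in EA with hormone, 9.01 and 8.98 in YF, and 8.43 and 8.82 in YF with hormone. The lowest YF array was again YF with hormone replicate 1, and it was still above every EA array. This gave an average of -1.40 (SE 0.10, adjusted p = 0.0011), 2.64-fold lower in EA, and it passed in all 14 alternative fits. A second Ptger4 probe set stayed between 2.39 and 2.70 on all arrays, in the low group.

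Ptgfr, the receptor for PGF2 alpha, did not pass on any of its 5 probe sets. Its brightest probe set (1420349_at) ranged from 8.60 to 9.03 over the 8 arrays with overlapping groups, and its difference of 0.07 had a 95% interval of -0.15 to 0.29. Those on 1446331_at and 1453924_a_at were 0.19 (adjusted p = 0.18) and 0.43 (adjusted p = 0.19), and the former passed without EA replicate 2 (0.27, adjusted p = 0.029). Its other 2 probe sets lay between 2.58 and 2.81. Ptger2, the EP2 receptor, read 2.16 to 2.28 and Ptgir, the prostacyclin receptor, 2.83 to 2.93, so both lay in the low group on every array and no difference could be read for them.

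Hpgd, which inactivates PGE2 and other prostaglandins, was slightly higher in EA cells. On its brighter probe set (1419906_at) the values were 13.00 and 13.00 in EA, 12.49 and 12.48 in EA with hormone, 12.39 and 12.39 in YF, and 12.33 and 12.20 in YF with hormone. The unstimulated EA arrays stood above the rest, and the other 3 groups lay close together. The average difference was 0.41 (SE 0.04, adjusted p = 0.0016), 1.33-fold, and the second probe set gave 0.43 (SE 0.06, adjusted p = 0.011). Without hormone the difference was 0.61 (SE 0.05, adjusted p = 0.0028) and with hormone 0.22 (SE 0.05, adjusted p = 0.053), the latter just missing the threshold. The difference between these 2 values had an adjusted p of 0.27 and did not pass.

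With the treatments taken separately, EA against YF called 8 of the 12 probe sets at or above the bound without hormone and 6 with it. Of all probe sets at or above the bound, 22% and 20.7% were called. Over all 19, the comparison without hormone called 9 (4 higher, 5 lower in EA) against a background of 10.8%, and with hormone 7 (1 higher, 6 lower) against 10.2%. The former count fell to 5 without EA replicate 1 or without YF replicate 1. On its brighter probe set Ptgds was 6.37 higher in EA without hormone (SE 0.50, adjusted p = 0.0025) and 4.76 higher with it (SE 0.50, adjusted p = 0.0058). The second Ptgds probe set gave 3.30 without hormone (limma adjusted p = 0.036), a call kept in 6 of 15 alternatives. It was lost after median centring (0.052) or quantile normalization (0.051) and with a trend and robust prior (0.061). The second Hpgd probe set gave 0.60 without hormone (limma adjusted p = 0.016) and kept its call in 12 of 15. Ptges gave -1.57 without and -1.21 with hormone on its brightest probe set, and -0.81 and -2.03 on 1449450_at. The change between the last pair of values, -1.22, did not pass its own test (adjusted p = 0.21). Ptger4 gave -1.55 (adjusted p = 0.0041) without hormone and -1.25 (adjusted p = 0.0082) with it, and the second Ptgs2 probe set -2.42 (adjusted p = 0.0064) and -1.92 (adjusted p = 0.013). Without EA with hormone replicate 2 the values with hormone became -1.28 for Ptger4 (adjusted p = 0.053) and -1.68 for Ptgs2 (adjusted p = 0.072). The Ptgs2 call was also lost without replicate 1 of YF with hormone (-1.97, adjusted p = 0.051). The value of -0.81 for 1449450_at (adjusted p = 0.019) lost its call in 5 of 15 alternatives: without EA replicate 1 or either YF array (-0.84 to -0.68, adjusted p of 0.074 to 0.097), with own groups only (0.053) and with a trend and robust prior (0.066).

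The brighter Ptgs2 probe set missed the threshold in both treatments, at -1.00 (adjusted p = 0.053) without and -0.58 (adjusted p = 0.22) with hormone. Without replicate 1 of YF with hormone, the array that stood apart, the latter became -0.90 (adjusted p = 0.037). The former passed under several alternatives, with an adjusted p of 0.013 to 0.036. Thus the EA arrays were lower in each treatment, but the call for this probe set turned on single arrays and settings.

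The rest of the pathway was read from a list of 42 further measured genes, each on its brightest probe set, of which 25 lay in the low group. Averaged over treatments, 5 of the 42 were higher and 4 lower in EA cells, with a median difference of 0.03, to be read like each list's count against the 16.5% of all probe sets that passed and the 33.8% of those at or above the bound. In the transport and breakdown list 4 of 5 genes were higher in EA and none was lower. Slco2a1, the prostaglandin importer, had means of 11.86 in EA and 12.13 in EA with hormone against 9.58 and 10.05 in YF. It was thus 2.18 higher in EA (SE 0.09, adjusted p = 0.0002). Abcc4, an exporter, differed by 0.64 (SE 0.07, adjusted p = 0.0031), Zadh2, a prostaglandin reductase, by 0.59 (SE 0.07, adjusted p = 0.0054) and Ptgr2, another reductase, by 0.22 (SE 0.05, adjusted p = 0.044). The fifth, Ptgr1, had a value of 0.39 that did not pass (adjusted p = 0.15).

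**Figure D3:**
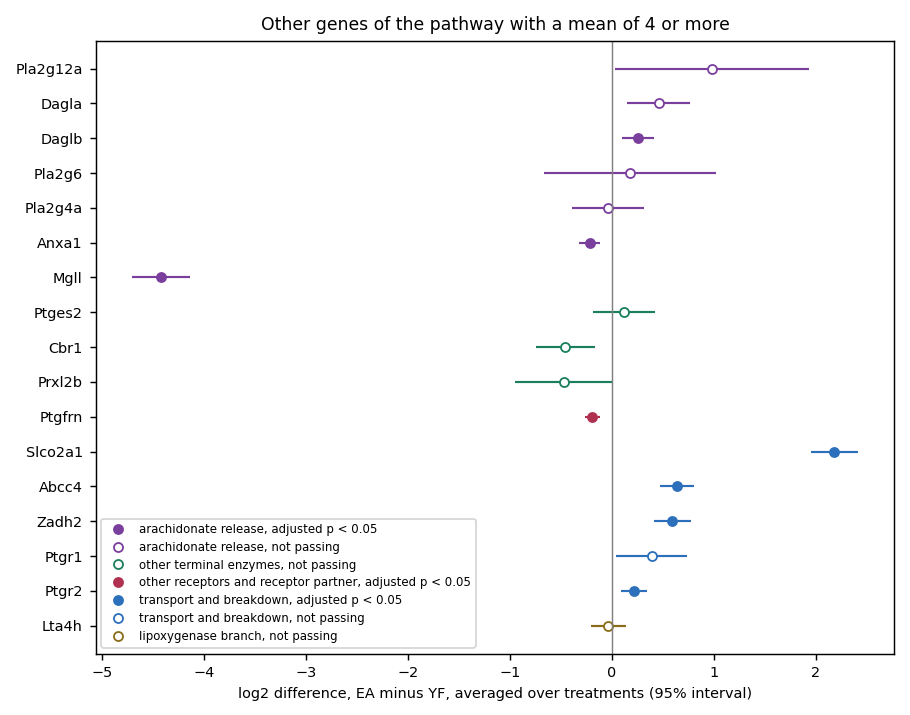
Log2 difference between EA and YF cells, averaged over treatments, with its 95% interval from limma for the 17 further pathway genes with a mean of 4 or more, coloured by list; filled points pass at an adjusted p under 0.05. Slco2a1 lies farthest to the right (2.18) and Mgll farthest to the left (-4.42).

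The list for arachidonic acid release, which also holds the inhibitor Anxa1, was mixed, with 1 of 14 genes higher and 2 lower, Anxa1 among the latter. Mgll, monoacylglycerol lipase, which frees arachidonic acid from an endocannabinoid, had means of 3.58 and 3.71 in EA against 8.23 and 7.91 in YF. The EA minus YF value was -4.42 (SE 0.11, adjusted p = 4.2e-05), with their side in the low group. Anxa1, an inhibitor of phospholipase A2, differed by -0.22 (SE 0.04, adjusted p = 0.020) and Daglb, a diacylglycerol lipase, by 0.26 (SE 0.06, adjusted p = 0.047). Pla2g4a, the phospholipase that supplies most arachidonic acid to cyclooxygenase, had a value of -0.04 (95% interval -0.39 to 0.32) and did not pass.

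None of the 6 other terminal enzymes passed in limma, with 1 at an unadjusted p under 0.05 (the carbonyl reductase Cbr1, -0.46, adjusted p = 0.054), and Hpgds and the thromboxane synthase Tbxas1 lay in the low group. Among 6 further receptor genes 2 were lower in EA: the thromboxane receptor Tbxa2r (-1.00, SE 0.05, adjusted p = 0.00032), inside the low group throughout, and Ptgfrn, a partner of the PGF receptor (-0.19, SE 0.03, adjusted p = 0.010). The lipoxygenase branch, which turns the same acid into leukotrienes, had 10 of its 11 genes in the low group and 0 calls in limma, with 1 at an unadjusted p under 0.05.

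The second comparison asks whether growth hormone changed these genes within each mutant. No prostaglandin probe set passed in EA cells, where 0.135% of all probe sets did. An unadjusted p under 0.05 was found for 5 of the 19 there, against 2529 of all 45037. These were both Hpgd probe sets, the second Ptgds probe set, and Ptges 1439747_at and 1449450_at, which moved in opposite directions (0.50 and -0.90). In YF cells 1 of 19 passed, the Ptges probe set of the low group, against a background of 0.18%, and 5 had an unadjusted p under 0.05, against 5114 of all. Averaged over mutants the same probe set was the 1 that passed, against 0.211%, and 0 of 19 passed when the response in EA was tested against that in YF, against 0.02%, with 6 at an unadjusted p under 0.05, against 4385 of all. The median change was -0.07 in EA and -0.06 in YF over the 19, against 0.03 and -0.04 over all probe sets.

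**Figure D4:**
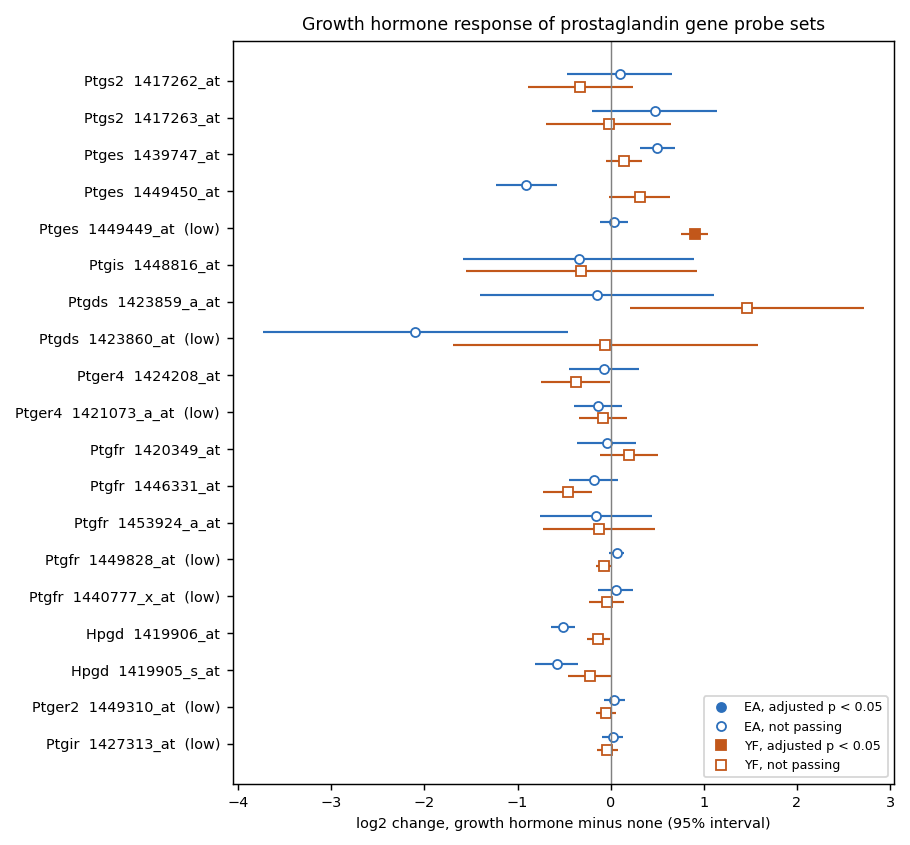
Log2 change with growth hormone in EA cells (circles) and YF cells (squares), with its 95% interval from limma, for the 19 prostaglandin probe sets; filled symbols pass at an adjusted p under 0.05, and "low" marks a mean below 4. The filled symbol is the low Ptges probe set in YF cells (0.90).

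Ptgs2 had a hormone value of 0.10 in EA (95% interval -0.47 to 0.66) and of -0.33 in YF (-0.89 to 0.24) on its brighter probe set. On the second probe set the values were 0.47 (-0.20 to 1.14) and -0.02 (-0.69 to 0.65). Arrays with and without hormone overlapped in both mutants on both probe sets. On the brighter probe set single arrays set these values: the YF value was -0.0035 without replicate 1 of YF with hormone and -0.65 without its replicate 2, and the EA value ranged from -0.04 (without EA replicate 1) to 0.23 (without EA replicate 2).

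The 3 Ptges probe sets did not move alike. In EA cells the brightest had a value of 0.50 (95% interval 0.31 to 0.69, adjusted p = 0.20), 1449450_at had -0.90 (-1.23 to -0.58, adjusted p = 0.17) and 1449449_at had 0.04 (adjusted p = 0.88). In YF cells the values were 0.14 (adjusted p = 0.53), 0.31 (adjusted p = 0.45) and 0.90 (SE 0.06, adjusted p = 0.022). The last rose from 2.19 and 2.20 to 3.02 and 3.18, both sides in the low group. It lost its call without any of the EA, EA with hormone or unstimulated YF arrays (adjusted p of 0.078 to 0.11) and when the YF arrays were fitted alone (0.25). The average over mutants was 0.47 (SE 0.04, adjusted p = 0.038), and it too was lost without any 1 of those 6 arrays (0.11 to 0.14) and after median centring (0.062) or quantile normalization (0.053).

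Hpgd had a hormone value of -0.51 in EA cells (SE 0.05, adjusted p = 0.062), with both arrays with hormone below both without, and of -0.13 in YF cells (SE 0.05, adjusted p = 0.42). The second probe set gave -0.58 (adjusted p = 0.20) and -0.23 (adjusted p = 0.44). None of these passed, and the EA value of the brighter probe set passed with a trend and robust prior (adjusted p = 0.040). Its average over mutants, -0.32 (adjusted p = 0.067), passed after quantile normalization (-0.33, adjusted p = 0.047) and without either YF array with hormone (-0.36 and -0.29, adjusted p of 0.050 and 0.041).

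On its brighter probe set Ptgds had a value of 1.46 in YF cells (95% interval 0.20 to 2.72, adjusted p = 0.38), from a mean in the low group, and of -0.15 in EA (-1.40 to 1.11). The second Ptgds probe set (1423860_at) had -2.10 in EA (-3.74 to -0.46, limma adjusted p = 0.66), to a mean in the low group, and -0.06 in YF. Its response in EA minus that in YF was -2.04 (limma adjusted p = 0.45), and none of these passed. Ptger4 had -0.38 in YF (adjusted p = 0.44) and -0.07 in EA, and Ptgis -0.32 and -0.34 with intervals that reached from -1.58 to 0.92. The Ptgis value in EA cells turned on 1 array, with -1.12 without EA with hormone replicate 1 and 0.44 without its replicate 2. On the brighter Ptgds probe set the value in YF cells ranged from 0.81 to 2.12 when 1 YF array was left out. Its value in EA was 0.09 without EA replicate 1. The Ptger4 value in YF was -0.18 without replicate 1 of YF with hormone and -0.57 without its replicate 2. Among the Ptgfr probe sets, 1446331_at had the largest value, -0.46 in YF (SE 0.10, adjusted p = 0.24). Among the 42 further pathway genes 0 passed in limma in either mutant, with 1 in each at an unadjusted p under 0.05.

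Genes whose values most resembled a prostaglandin gene were found for the 3 with the widest range of group means, as the smallest root mean squared difference over the 8 arrays after each was centred, among 18263 named probe sets with a mean of 4 or more. These likenesses are descriptions over arrays that fall into the same 4 groups. For Ptgds the nearest were the protease gene Adam8 (0.46, r = 0.99), Gdpd2 (0.47), the neuropeptide gene Nts (0.49), the cytokine gene Il11 (0.52) and the transporter gene Slc22a18 (0.59). For Ptgis they were Siglecg (0.28, r = 0.99), the homeobox gene Shox2 (0.31), the sulfotransferase gene Chst2 (0.32), Fibin (0.35) and the potassium channel gene Kcnab1 (0.36). For Ptges they were Psme4 (0.11, r = 0.99), Slc41a2 (0.12), Ccdc47 (0.12), Larp1b (0.13) and Specc1 (0.13).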

How the data were processed

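The authors deposited log2 expression values per probe set in 1 table of 8 arrays. GCOS (the Affymetrix scanner's own program) and RMA (robust multi-array averaging) are named in the submitters' processing notes with no version, and neither order nor settings are known here. Array medians were 2.85 to 2.94, inside the low group, and upper quartiles were 9.04 to 9.14. No further normalization was applied in the main fit, and no detection calls were used. Of 45101 probe sets, 64 controls were left out, and 34945 of the rest carried exactly 1 symbol in the platform annotation.

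Differences were fitted with limma (version 3.58.1, R 4.3.3, lmFit and eBayes) as 4 group means over 8 arrays, with 4 residual and 1.26 prior degrees of freedom. P-values were two-sided and adjusted by Benjamini-Hochberg over 45037 probe sets, with calls under 0.05. Signs are EA minus YF, or hormone minus none. SE is moderated by limma, and p-values measure only the spread between these arrays. There were 7 contrasts, which share arrays. The code was tested on simulated data. The genes and lists were chosen with earlier results of these data known. All member probe sets are described; of other pathway genes up to 6 that passed are named per comparison by size of change, on their brightest probe set, and the rest were added after their values were seen. The number of arrays limits the precision.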

Additional observations from a re-analysis of the deposited data

Results flagged for a closer look

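On the Ptges probe set 1449450_at both EA arrays with hormone lay below both without (4.31 and 4.39 against 5.12 and 5.39), while both YF arrays with hormone lay above both without (6.52 and 6.23 against 6.04 and 6.09). The response in EA minus that in YF was -1.22 (SE 0.18, limma adjusted p = 0.21), which did not pass. The brightest Ptges probe set gave 0.36 for the same difference, in the opposite direction (adjusted p = 0.45).

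On the Ptgfr probe set 1449828_at, inside the low group, the responses were also opposite but the other way round, with both EA arrays higher and both YF arrays lower with hormone. The response in EA minus that in YF was 0.14 (SE 0.05, adjusted p = 0.45), which did not pass. All its values lay between 2.70 and 2.81.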

How the results depend on the processing

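The alternatives were median centring, quantile normalization, probe sets above the median level, a trend and robust prior, a fit of a contrast's own groups, the replicate number as a block, and each array left out in turn. Crossing the numbers of the unstimulated EA arrays in the block was added after seeing the data. No called value changed sign in any of them. The count of prostaglandin probe sets called, 11 for EA against YF averaged over treatments and 7 with hormone, stayed within 1.5 times under each. Without hormone it was 9, and 5 to 9 when 1 array was left out. For hormone in EA cells it was 0, and 1 (Hpgd) with the trend and robust prior. For hormone in YF cells it was 1, and 0 among probe sets above the median level, with own groups only and with the replicate block, and 0 to 1 when 1 array was left out. For the difference between responses it was 0, and 1 (the low Ptges probe set) with the trend and robust prior and without YF with hormone replicate 2, so 0 to 1 over left-out arrays. For the average hormone effect it was 1, and 0 with median centring, among probe sets above the median level, with the replicate block and with the crossed block, and 0 to 2 when 1 array was left out. Leaving out an array leaves a lone array in its group, which is assumed to vary like the others, and the low Ptges probe set was not among those above the median level. The cause of these changes was not tested. Over all probe sets, calls numbered 4 to 106 for hormone in EA cells, 1 to 675 in YF cells, 27 to 373 for their average, 0 to 201 for the difference, 2488 to 5899 for EA against YF without hormone and 2372 to 5883 with it. Deviations of same-numbered arrays correlated at -0.30 (EA with YF with hormone) to 0.37 (the groups with hormone). From these values it cannot be told whether the replicate numbers pair the arrays. With the replicate block the low Ptges probe set had an adjusted p of 0.056 in YF cells and 0.083 for the average hormone effect, and the brighter Ptgs2 probe set one of 0.035 for EA against YF without hormone. Over all probe sets the block moved calls from 61 to 15 for hormone in EA cells, from 81 to 21 in YF cells and from 95 to 37 for the average. With the crossed numbers these were 50, 131 and 77.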
